A study of Homo sapiens with 4 samples.

Results

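The 50 genes described here encode the core of the DNA replication machinery, from the complex that marks replication origins to the factors that stabilise the fork. They were taken by symbol from a list of names, with no threshold on expression, and all 50 were found among the 29833 genes of the series, on 20 chromosomes. RNA-seq was performed on Reh-6-MPR cells, a 6-mercaptopurine (6-MP) resistant derivative of Reh, a line established from human B-lineage acute lymphoblastic leukemia and labelled wild type. For 48 h the cells received PBS as vehicle, 4 mM of histidine, 1.0 μg/mL of 6-MP, or both agents at those doses (the combined treatment), and 1 library was made per treatment. All 4 libraries come from resistant cells, so parental Reh cells were not compared. The study asked which genes might contribute to the response of resistant cells to 6-MP when histidine is supplied.

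Expression was deposited as FPKM, the fragments of a gene scaled to its length and to the fragments of the library. The totals behind these values were 12899122 reads for the combined treatment and 14316493 to 15486376 for the other 3 libraries. Members rested on 199 reads (POLA2) to 13281 reads (MCM7) and took 0.901% to 0.934% of all reads. With a single library per treatment there is no replicate spread and no p-value is given. Where 4 levels stand in a row, they follow the order vehicle, histidine, 6-MP, combined. The 95% intervals are exact Clopper-Pearson intervals on the reads behind each value, cover counting error only and compare libraries, not treatments. Of 10 B-lineage markers, 9 were listed and all stood at an FPKM of 11.8 or more in each library. None of 4 T cell markers was listed, the 2 erythroid markers listed summed to at most 0.0647, and the stromal marker listed, COL1A1, was at 0.869 to 1.05 and, with the combined treatment, 2.04. Of the myeloid markers, MPO was at 27.7, 30.5 and 26.4 with vehicle, histidine and 6-MP and at 41.0 with the combined treatment, and LYZ was at 0.324, 0.0375 and 0.113 and then 1.39, on 1 to 31 reads. CD14 had at most 4 reads. The part of cells with these markers in the results was not tested. Exon bases are shared with another listed gene by 19 members, and whether counting used strand is not stated. The share was at least 10% for 4 of them, MCM2 (22.7%), GINS3 (10.9%), GINS4 (21.2%) and POLA2 (35.1%). The partners in these overlaps had at most 19 reads in the vehicle and combined libraries. MCM2 also shares 45 bases (0.92%) with TPRA1, which had 644 and 618 reads there. In bulk RNA, fewer cells of a kind (for example in 1 phase of the cycle) and less RNA per cell cannot be told apart, and their part in these results was not tested.

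DNA replication is licensed in G1, when the origin recognition complex, CDC6 and CDT1 load the MCM2-7 helicase onto DNA as an inactive double ring. In S phase the ring is activated by CDC45 and the GINS complex, and polymerase alpha-primase starts each new strand before polymerases delta and epsilon take over with the sliding clamp PCNA. Many of these genes are transcribed towards S phase by E2F factors, and geminin (GMNN) holds CDT1 in check until the next cycle.

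E2F letters can be looked for in the promoters, and 4 of these are shown because their genes stood on either side of vehicle with the combined treatment. They are those of the helicase subunit MCM6 and the GINS subunit GINS1, which were lower, and of the fork protection factors TIMELESS and CLSPN, which were higher. RefSeq promoter sequences (GRCh38.p14) matched 43 of the 50 members. Each line below holds the 250 bases before the start, 5′ to 3′ on the gene's own strand, and capitals mark E2F and CCAAT letters. The stretches are chr2:135876444-135876693 (minus strand) for MCM6, chr20:25407423-25407672 (plus) for GINS1, chr12:56449427-56449676 (minus) for TIMELESS and chr1:35769979-35770228 (minus) for CLSPN. All 4 end directly before the deposited start of the gene and lie outside its annotated exons in GENCODE 29.
MCM6: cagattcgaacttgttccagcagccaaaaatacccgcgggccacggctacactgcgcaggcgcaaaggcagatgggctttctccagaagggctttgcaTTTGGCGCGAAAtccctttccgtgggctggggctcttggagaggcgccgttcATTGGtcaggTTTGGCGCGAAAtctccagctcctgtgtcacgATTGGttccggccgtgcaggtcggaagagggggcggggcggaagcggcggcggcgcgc
GINS1: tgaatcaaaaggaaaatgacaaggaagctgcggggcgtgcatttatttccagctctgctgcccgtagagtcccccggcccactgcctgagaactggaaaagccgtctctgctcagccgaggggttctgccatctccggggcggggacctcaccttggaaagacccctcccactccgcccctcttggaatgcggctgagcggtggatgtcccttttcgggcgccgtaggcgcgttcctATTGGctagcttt
TIMELESS: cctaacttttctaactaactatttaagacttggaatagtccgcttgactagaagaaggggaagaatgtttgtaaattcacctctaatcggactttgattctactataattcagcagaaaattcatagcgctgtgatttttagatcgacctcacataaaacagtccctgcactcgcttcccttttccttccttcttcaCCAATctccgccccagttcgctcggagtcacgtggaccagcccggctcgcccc
CLSPN: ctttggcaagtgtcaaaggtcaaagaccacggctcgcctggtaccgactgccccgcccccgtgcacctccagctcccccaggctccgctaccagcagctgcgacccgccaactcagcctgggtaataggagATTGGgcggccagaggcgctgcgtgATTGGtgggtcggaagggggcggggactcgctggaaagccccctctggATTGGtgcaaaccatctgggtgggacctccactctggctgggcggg

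Counted with the start as base 0, MCM6 holds TTTGGCGC from -152 to -145 and again from -90 to -83, each overlapping GCGCGAAA (TTTCGCGC on the opposite strand), and ATTGG at -100 and -58. In GINS1 the E2F letters lie after the start, from 5 to 12, and in CLSPN they straddle it, from -5 to 2, so neither is in capitals. TIMELESS holds CCAAT from -53 to -49 and no E2F match. CDT1, the member with the largest difference, holds a single match to the E2F letters searched, from -35 to -28. It is shown within 30 bases at chr16:88803743-88803772 (plus strand). This stretch lies before the deposited start but inside the first CDT1 exon of GENCODE 29, where the gene begins at 88803213. The bases tttggcgg that follow the match are not among the letters searched.
CDT1: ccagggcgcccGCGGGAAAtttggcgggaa

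The E2F letters searched were TTTCCCGC, TTTCGCGC, TTTGCCGC and TTTGGCGC on both strands, in windows of 300 bases that hold 250 bases before and 50 after the start. At least 1 of them was present in 21 of 43 members (48.8%), in 7.13% of 8201 tested protein-coding genes with a window and in 3.99% of all 27305 genes with a window. CCAAT on either strand was present in 28 of 43 members (65.1%), against 44.0% of the tested protein-coding genes and 39.7% of all genes. TTTGAA, the cell cycle homology element of late cell cycle genes, was present in RRM1 alone among the members, against 13.2% of the tested protein-coding genes. E2F letters were held by 10 of the 16 members with a window that were lower with the combined treatment than with vehicle and by 11 of the 27 that were higher. By the sign after median-ratio scaling the order was the other way, at 12 of 26 lower (46.2%) and 9 of 17 higher members (52.9%), against 62.5% and 40.7% as deposited. Of the members with these letters, GMNN, POLE2 and CDC6 were within counting error of vehicle as deposited. After scaling by the median ratio each was lower than vehicle beyond counting error. GMNN, CDC6 and PCNA turn sign with a scaling. All 4 MCM2-7 genes with a window (MCM2, MCM3, MCM6 and MCM7) held them, and ORC1 did not. A match describes letters, not a site in use.

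In vehicle the members were abundant, with a median FPKM of 28.9. Among the 12750 genes tested, those whose mean FPKM was 1 or more, 47 members were above the median level and 23 were in the top 10%. PCNA was the most abundant and POLA2 the least, with mean FPKM of 385 and 2.82. The plot of the level of every member shows that vehicle, histidine and 6-MP gave nearly the same values. On the log2(FPKM + 1) scale the range over these 3 libraries had a median of 0.09 over the members and 0.15 over all tested genes, and was widest for PRIM1, at 0.32.

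**Figure D1:**
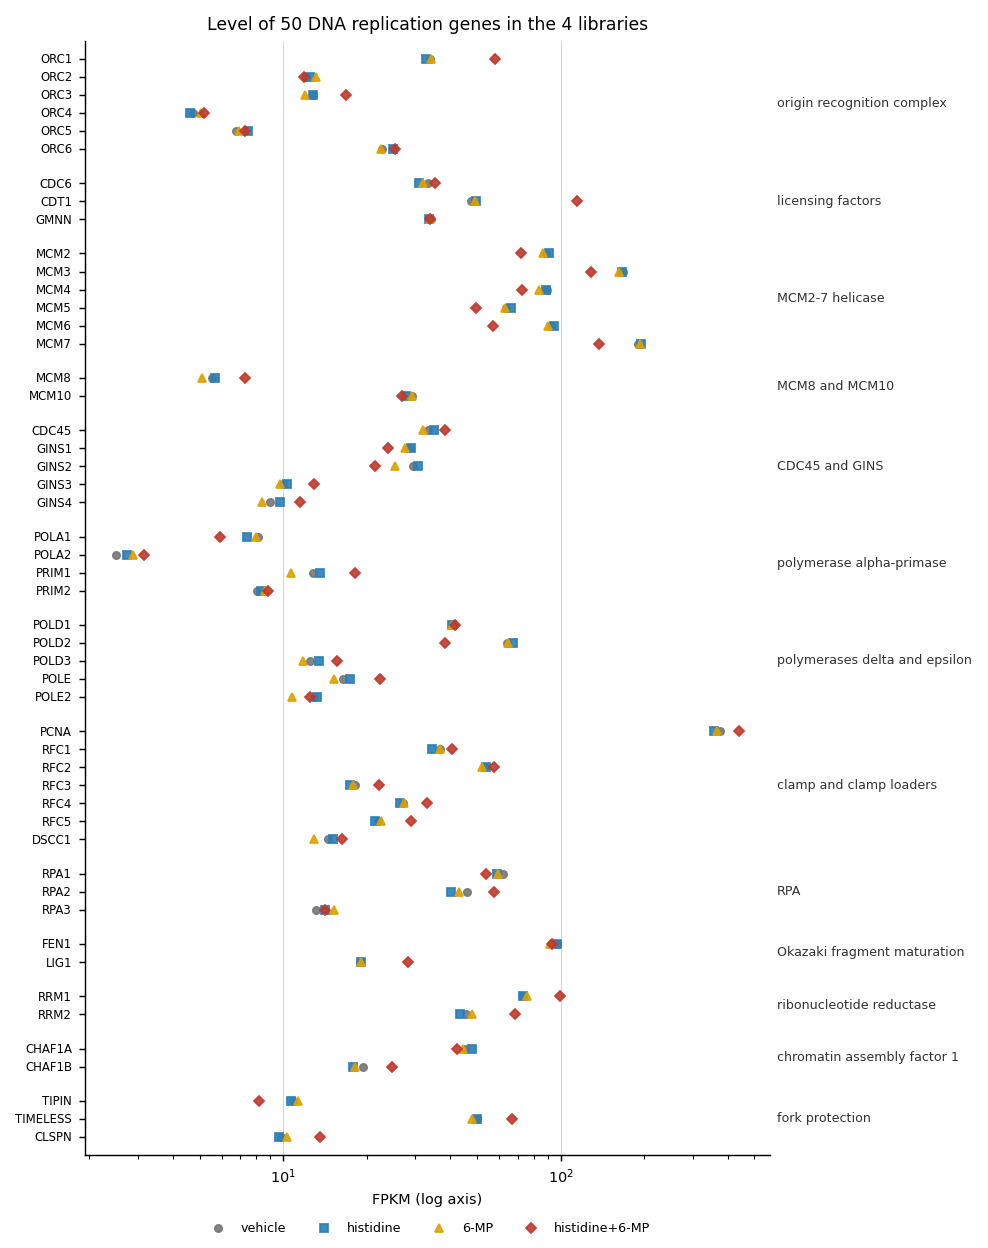
FPKM (log axis) of the 50 DNA replication genes, ordered by role, with 1 point per library (vehicle, histidine, 6-MP, combined). Vehicle, histidine and 6-MP lie close together for most genes, while the combined treatment stands right of them for CDT1 and ORC1 and left of them for all of MCM2 to MCM7.

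With either agent alone no member reached an absolute log2 fold change of 1 on the log2(FPKM + 1) scale, the fold criterion of the study, with histidine (background 1.33% of all tested genes) or with 6-MP (background 1.18%). The extremes with histidine were -0.18 for RPA2, a subunit of the single-strand binding protein RPA, and 0.12 for the origin subunit ORC6. With 6-MP they were -0.24 for PRIM1, the catalytic primase subunit, and 0.20 for RPA3. The median over the members was 0.016 with histidine and -0.024 with 6-MP, beside 0.015 and 0.0039 over all tested genes. The counting interval of the read ratio lay above 0 for 6 members with histidine (background 12.9%) and below 0 for 8 (8.72%), and with 6-MP for 2 (9.98%) and 8 (7.91%). Scaled by the median ratio, the histidine intervals were above 0 for 0 members (background 8.27%) and below 0 for 11 (15.1%), with a median of -0.022, and 29 higher and 21 lower members became 19 and 31 (54.7% and 45.3% of all tested genes, then 44.1% and 55.8%). With 6-MP 17 members were higher and 33 lower than vehicle (51.4% and 48.6% of all tested genes), and 16 and 34 after scaling (49.0% and 51.0%). Members have more reads than the typical gene, 1470 against 436 at the median in vehicle, so their intervals are narrower.

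With the combined treatment the members moved apart instead of together. The median log2 fold change against vehicle was 0.12, beside 0.13 over all tested genes, and the interquartile range over the members was 0.45, beside 0.55 over all tested genes. With histidine alone these ranges were 0.093 and 0.18. CDT1 was the single member at an absolute log2 fold change of 1 or more, in all 3 comparisons of the combined treatment, where the background was 6.53% against vehicle, 5.55% against histidine and 6.02% against 6-MP. The read ratio to vehicle had an interval above 0 for 25 members (background 42.7%) and below 0 for 14 (20.8%). Against histidine these counts were 25 (41.2%) and 13 (22.1%), and against 6-MP they were 27 (42.2%) and 15 (21.2%). Scaling by the median ratio lowers the combined library by 0.24 on the log2 scale against vehicle and moves the median of all tested genes from 0.13 to -0.067. Under that scaling 12 members were above 0 with their interval (background 24.1%) and 22 below (37.7%). The 12 were ORC1, ORC3, CDT1, PRIM1, POLE, RFC5, LIG1, RRM1, RRM2, CHAF1B, TIMELESS and CLSPN. As deposited 32 members were higher and 18 lower than vehicle (63.6% and 36.4% of all tested genes), and after scaling 20 were higher and 30 lower (43.3% and 56.7%). Members whose sign against vehicle turns are named at each group.

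**Figure D2:**
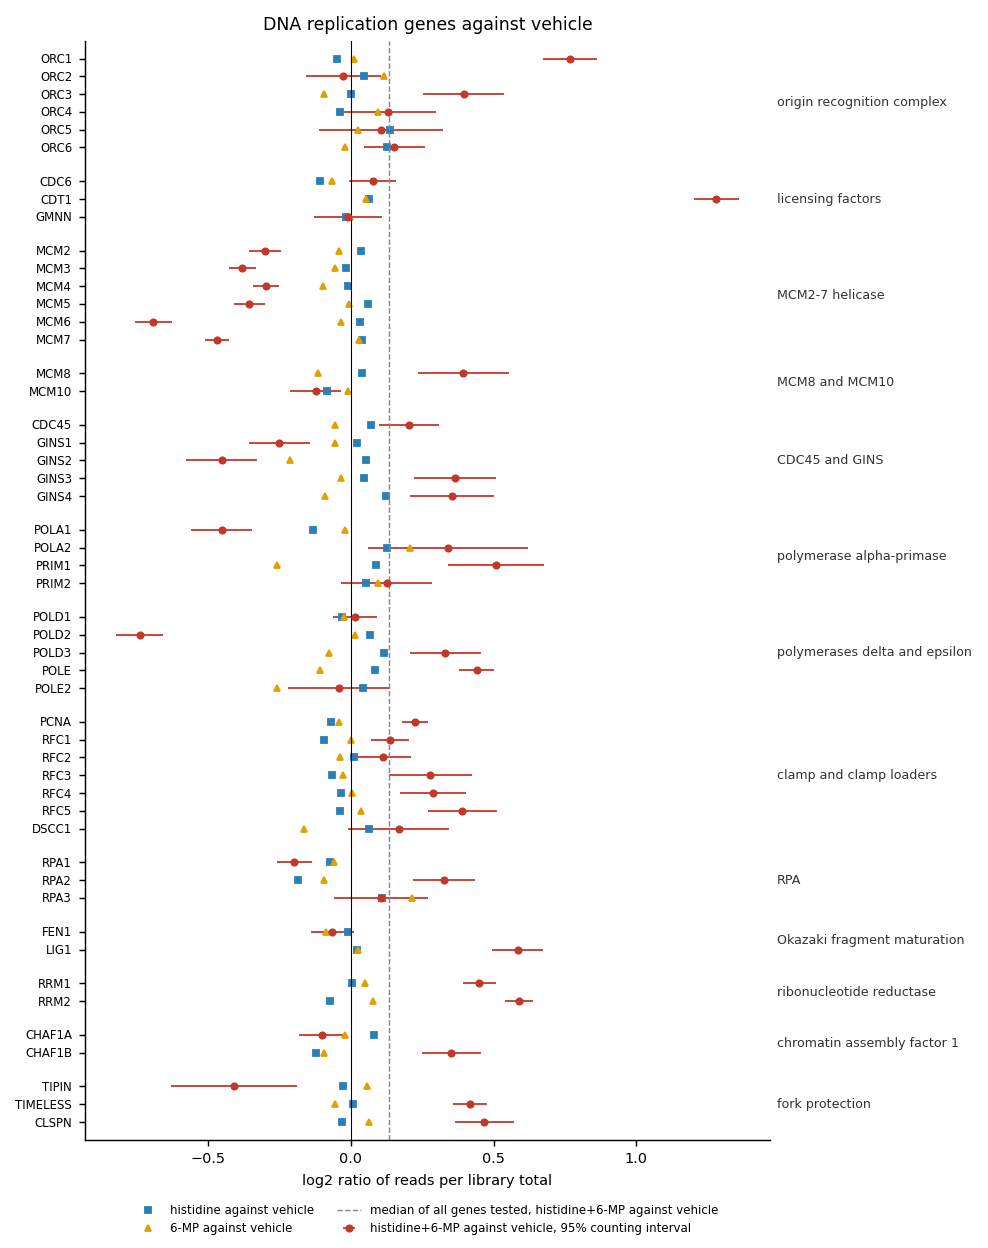
Log2 ratio of reads per library total to vehicle for each member, with histidine (squares), 6-MP (triangles) and the combined treatment (circles with 95% counting intervals); the dashed line is the median of all tested genes with the combined treatment. CDT1 stands farthest right at 1.28, POLD2 farthest left at -0.74, and the 6 MCM2-7 genes all lie left of 0.

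Within the origin recognition complex, which binds origins and recruits the loading factors, ORC1 stood apart. ORC1 (ENSG00000085840, chromosome 1, 52372829 to 52404423) is the subunit whose level oscillates with the cell cycle. Its FPKM was 34.0, 32.8, 34.2 and 57.9. Vehicle and both single agents lay close together, and the combined treatment was above them. The log2 fold change was 0.75 against vehicle, 0.80 against histidine and 0.74 against 6-MP, and the log2 read ratio to vehicle was 0.77 (95% interval 0.67 to 0.86). ORC3 was also higher with the combined treatment (16.9 against 12.0 to 12.8, log2 fold change 0.37 against vehicle). ORC2, the lowest of the complex by fold change, was at 12.1, 12.5, 13.1 and 11.9, a log2 fold change of -0.03. Its read-ratio interval (-0.16 to 0.10) included 0 and its sign turns with the TPM scaling. After scaling by the median ratio ORC2 was at -0.25, with an interval below 0. ORC4, ORC5 and ORC6 were at 0.11, 0.09 and 0.15 as deposited and below 0 after scaling by the median ratio. The FPKM ratio of ORC1 to ORC2 was 2.81, 2.63 and 2.61 and then 4.87 with the combined treatment.

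Among the loading factors CDT1 carried the largest difference of all members. CDT1 (ENSG00000167513, chromosome 16, 88803789 to 88809258) brings MCM2-7 to origins and is destroyed once S phase begins. Its FPKM was 47.4 with vehicle, 49.6 with histidine and 49.2 with 6-MP, on 1872, 2118 and 2083 reads. With the combined treatment it was 115, on 4098 reads. The log2 fold change was 1.26 against vehicle, 1.20 against histidine and 1.21 against 6-MP. The log2 read ratio to vehicle was 1.28 (95% interval 1.20 to 1.36). Departure from additivity, the log2 value of the combined treatment less those of both single agents plus vehicle, was 1.15, and CDT1 was the member that passed 1 there (background 6.76%). After scaling by the median ratio its departure was 0.95, and its log2 fold change was 1.02 against vehicle and just under 1 against histidine and 6-MP.

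Geminin, the inhibitor of CDT1, was nearly level as deposited. GMNN was at 34.0, 33.6, 33.9 and 33.8, a log2 fold change of -0.01 against vehicle with a read-ratio interval of -0.13 to 0.11. Its sign turns with the TPM scaling. After scaling by the median ratio GMNN was at -0.24, lower than vehicle beyond counting error. The FPKM ratio of CDT1 to GMNN was 1.39, 1.48 and 1.45 in the first 3 libraries and 3.41 with the combined treatment. CDC6, the ATPase that loads the helicase together with CDT1, was at 33.4, 31.0, 31.9 and 35.2. Its log2 fold change of 0.07 against vehicle was within counting error. After scaling by the median ratio it became -0.16, lower than vehicle beyond counting error.

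The MCM2-7 helicase, the ring that unwinds DNA, was the complex whose members all stood lower with the combined treatment, under each scaling tried. MCM6 (ENSG00000076003, chromosome 2, 135839626 to 135876443), whose promoter is printed above, was at 92.5, 94.4, 90.4 and 57.2. Its log2 fold change was -0.68 against vehicle, -0.71 against histidine and -0.65 against 6-MP, with a read ratio to vehicle of -0.69 (-0.76 to -0.63). MCM7 was at 190, 196, 194 and 137, a log2 fold change of -0.47 against vehicle. MCM3 was at 168, 166, 162 and 129 (-0.38). The remaining subunits were at -0.35 (MCM5), -0.30 (MCM2) and -0.29 (MCM4), the last with FPKM of 89.4, 88.8, 83.4 and 72.8. For each subunit the combined treatment was below all other 3 libraries.

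Summed over the 6 subunits, FPKM was 693, 702 and 680 in the first 3 libraries and 518 in the combined one. The summed reads of the combined treatment, 32485, were 0.755 times those of vehicle per library total, a log2 ratio of -0.40 (95% interval -0.43 to -0.38). The log2 ratio was -0.43 to histidine and -0.37 to 6-MP. With median-ratio scaling the 3 ratios were -0.65 to vehicle, -0.63 to histidine and -0.61 to 6-MP. Each of the 6 subunits was lower than in all other libraries by more than the range of those 3, which 11 of the 50 members and 19.2% of all tested genes were. The other 5 such members were GINS1, POLA1, POLD2, RPA1 and TIPIN. Higher by more than that range were 23 members (background 37.1%). Scaled by the median ratio, 21 members (background 32.7%), all 6 subunits among them, were lower by more than the range and 11 (20.3%) higher. The highest subunit (MCM7) was 2.99 times the lowest (MCM5) in vehicle and 2.76 times with the combined treatment.

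**Figure D3:**
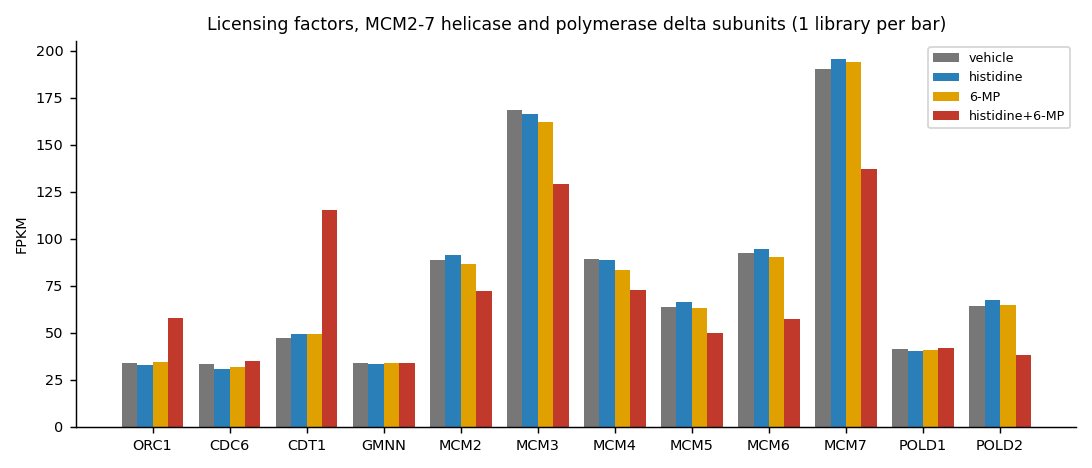
FPKM of licensing factors, the 6 MCM2-7 subunits and 2 subunits of polymerase delta, with 1 bar per library and the axis starting at 0. ORC1 and CDT1 are taller with the combined treatment and each MCM2-7 subunit and POLD2 are shorter, while CDC6, GMNN and POLD1 differ little.

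MCM8 and MCM10 are relatives of the helicase by name, MCM8 acting in recombination repair and MCM10 in helicase activation. MCM8 was at 5.52, 5.67, 5.09 and 7.26, a log2 fold change of 0.34 against vehicle. MCM10 was at 29.3, 27.6, 29.04 and 26.9, a log2 fold change of -0.12. MCM8 thus stood above the other 3 libraries with the combined treatment, unlike any MCM2-7 subunit. Scaled by the median ratio MCM8 was at 0.13 against vehicle, with an interval that included 0, and MCM10 was at -0.35.

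The GINS complex, which joins CDC45 and MCM2-7 in the active helicase, held lower and higher subunits as deposited. GINS2 was at 29.4, 30.5, 25.3 and 21.5, a log2 fold change of -0.44 against vehicle. With 6-MP alone GINS2 was also below vehicle (log2 fold change -0.21). GINS1, whose promoter is shown above, was at -0.24 with the combined treatment. GINS3 was at 10.0, 10.3, 9.76 and 12.9, a log2 fold change of 0.33, and GINS4 was at 0.32. Scaled by the median ratio these were 0.11 and 0.10, with intervals that included 0. The FPKM ratio of GINS2 to GINS3 was 2.94, 2.96, 2.59 and 1.67. CDC45 was at 0.20 as deposited and at -0.04 after scaling by the median ratio.

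Polymerase alpha-primase lays the RNA-DNA primers of each Okazaki fragment. POLA1, its DNA polymerase subunit, was at 8.09, 7.38, 7.97 and 5.91, a log2 fold change of -0.40 against vehicle. PRIM1, its primase subunit, was at 12.8, 13.6, 10.7 and 18.2, a log2 fold change of 0.48 against vehicle and 0.72 against 6-MP. The FPKM ratio of PRIM1 to POLA1 was 1.58, 1.84, 1.34 and 3.08. POLA2 and PRIM2 were at 0.25 and 0.11, and PRIM2 was below 0 after scaling by the median ratio. The 2012 exon bases that POLA2 shares lie on the same strand as its partner AP000944.2, which had 1 and 2 reads.

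Polymerase delta, which copies the lagging strand, held the lowest member. POLD2 (ENSG00000106628, chromosome 7, 44114680 to 44124358), its small regulatory subunit, was at 64.1, 67.3, 64.8 and 38.4. The combined treatment was again below the other 3 libraries, which lay close together. Its log2 fold change was -0.73, -0.79 and -0.74 against vehicle, histidine and 6-MP. After scaling by the median ratio these were -0.96, -0.99 and -0.97, close in size to those of CDT1. Its departure from additivity was -0.81 as deposited and -0.999 with that scaling, beside 1.15 and 0.95 for CDT1. The read ratio to vehicle was -0.74 (-0.82 to -0.66), from 3384 to 1825 reads. POLD1, the catalytic subunit, was at 41.3, 40.5, 40.7 and 41.8, so the FPKM ratio of POLD1 to POLD2 went from 0.644, 0.602 and 0.628 to 1.09. After scaling by the median ratio POLD1 was below vehicle, at -0.22. POLD3, an accessory subunit, was at 0.31 against vehicle, and at 0.08 after that scaling, within counting error. POLE, the catalytic subunit of the leading strand polymerase epsilon, was at 16.5, 17.4, 15.3 and 22.3, a log2 fold change of 0.42. POLE2 was at -0.04 with the combined treatment and at -0.24 with 6-MP alone. After scaling by the median ratio these were -0.26 and -0.25, both beyond counting error.

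At a lower criterion, a 1.5-fold difference on the same log2 scale, 4 members passed against vehicle (background 21.2%), which were CDT1 and ORC1 as higher and MCM6 and POLD2 as lower. Against histidine RRM2 joined them as higher, making 5 (19.4%), and against 6-MP PRIM1 did, making 5 (20.3%). These shares of the members, 8% and 10%, lie below the background. With median-ratio scaling the split against vehicle was 1 higher (CDT1; 9.04% of all tested genes) and 8 lower (MCM3, MCM5, MCM6, MCM7, GINS2, POLA1, POLD2 and TIPIN; 11.3%), with ORC1 at 0.51. It was 2 higher (8.26%) and 5 lower (10.3%) against histidine, and 1 higher (8.88%) and 4 lower (10.5%) against 6-MP.

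For the sliding clamp and its loaders, 6 of 7 genes had a read-ratio interval above 0 as deposited (42.7% of all tested genes), and that of DSCC1 included 0. After scaling by the median ratio only the interval of RFC5 stayed above 0, and those of RFC1 and RFC2 lay below 0. PCNA, the clamp that tethers polymerases to DNA, was at 377, 359, 366 and 440, a log2 fold change of 0.22 against vehicle, and stood at -0.02 after scaling by the median ratio. RFC5 had the highest fold change against vehicle of the clamp loader subunits, with FPKM of 22.04, 21.4, 22.6 and 28.9 (log2 fold change 0.38), and RFC2 the lowest, with 53.4, 53.9, 52.0 and 57.7 (0.11). RFC1, RFC3, RFC4 and DSCC1 lay between them, at 0.13 to 0.28. All 7 fold changes of this group were above 0 as deposited, but PCNA, RFC1, RFC2 and DSCC1 were below 0 after scaling by the median ratio.

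RPA, the heterotrimer that coats single-stranded DNA, differed between subunits as deposited. RPA1, the large subunit, was at 61.8, 58.8, 59.3 and 53.9, a log2 fold change of -0.19. RPA2 was at 45.9, 40.4, 43.0 and 57.6, a log2 fold change of 0.32 against vehicle and 0.50 against histidine, which became 0.08 and 0.30 with median-ratio scaling. The FPKM ratio of RPA2 to RPA1 was 0.743, 0.687, 0.725 and 1.07. RPA3 was at 0.10 as deposited and below 0 after scaling by the median ratio.

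Okazaki fragment maturation joins the lagging strand, with the flap endonuclease FEN1 trimming and DNA ligase 1 (LIG1) sealing. LIG1 was at 18.9, 19.1, 19.2 and 28.3, and the narrow range of the first 3 libraries, 0.02 on the log2 scale, stood against a log2 fold change of 0.56 against vehicle. FEN1 was at 97.5, 96.8, 91.8 and 93.3 (-0.06), a read-ratio interval of -0.14 to 0.01. After scaling by the median ratio FEN1 was at -0.30, lower than vehicle beyond counting error.

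Ribonucleotide reductase makes the deoxynucleotides for replication, and both of its subunits listed were higher with the combined treatment under each scaling tried. RRM2, the subunit limiting in S phase, was at 45.6, 43.3, 48.2 and 68.6. Its log2 fold change was 0.58 against vehicle, 0.65 against histidine and 0.50 against 6-MP. RRM1 was at 73.1, 73.4, 75.7 and 99.9, a log2 fold change of 0.44 against vehicle. The 2 pseudogenes of RRM2 listed had at most 12 reads in any library.

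Chromatin assembly factor 1 places new histones behind the fork. CHAF1B was at 19.4, 17.8, 18.2 and 24.8, a log2 fold change of 0.34. CHAF1A was at 45.2, 47.9, 44.6 and 42.2, a log2 fold change of -0.10. With median-ratio scaling CHAF1B was at 0.10 and CHAF1A at -0.34.

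The fork protection complex pairs TIMELESS with TIPIN and works with claspin (CLSPN) to pace the fork and signal its stalling. TIPIN was at 10.9, 10.7, 11.3 and 8.18, a log2 fold change of -0.37 against vehicle. TIMELESS was at 49.8, 50.1, 48.0 and 66.6, a log2 fold change of 0.41. The FPKM ratio of TIMELESS to TIPIN was 4.59, 4.71, 4.24 and 8.14. CLSPN was at 9.86, 9.65, 10.3 and 13.6, a log2 fold change of 0.43. With median-ratio scaling TIPIN was at -0.59, TIMELESS at 0.17 and CLSPN at 0.21 against vehicle. The pairs of subunits whose ratios are given were chosen after their values were seen.

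The step from vehicle to histidine and the step from 6-MP to the combined treatment lay beyond counting error in opposite directions for 10 members (background 5.88%). For RPA2 the log2 read ratio was -0.18 in the first step and 0.42 in the second, and for MCM7 it was 0.040 and -0.50. After scaling by the median ratio 3 of the 10 kept opposite intervals (CHAF1B, RPA2 and RRM2), and MCM7, CDC6 and RFC1 had the same sign in both steps. The step from vehicle to 6-MP and that from histidine to the combined treatment did so for 2 members, PRIM1 and POLE (background 5.32%). With that scaling the count for these steps was 5 (background 5.63%), since TIMELESS, PCNA and RPA3 joined them, and for the histidine steps it was 3 (background 5.49%). Neither difference was tested, and the higher read numbers of the members narrow their intervals.

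Beyond the members, related lists show where replication genes stood. Further replication factors (23 tested) had a median log2 fold change of 0.17 with the combined treatment against vehicle, from TOP1 (-0.52) to DONSON (0.85), with intervals above 0 in 14 (42.7% of all tested genes) and below in 3 (20.8%). Nucleotide supply genes (9) had a median of 0.24, from DCTPP1 (-0.41) to RRM2B (1.14), the p53-inducible reductase subunit. Replication checkpoint genes (10) had a median of 0.10 and stayed between -0.48 (WEE1) and 0.48 (RAD17, which was at 0.54 with 6-MP alone). Histone supply and maintenance methylation genes (8) had a median of -0.12. Their lowest was UHRF1 (-1.27), the reader of hemimethylated DNA, which was at 442, 436, 440 and 183, and their highest was ASF1B (0.88), at 0.749, 1.12, 1.93 and 2.22 on 21 to 58 reads, so that 6-MP alone stood near the combined treatment.

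G1/S cyclins and kinases (10) had a median of 0.10, from CCNA2 (-0.51), the S-phase cyclin, to CDKN1A (1.65), the p21 inhibitor of cyclin-dependent kinases, which was at 48.6, 42.8, 41.4 and 155. A published list of 43 S-phase markers holds 21 of the members, whose median was 0.11, and the 29 members outside it had 0.13. The 22 S-phase markers that are no members had a median of 0.27. The published G2/M marker list (53 tested) had a median of -0.39 and ran from CDC20 (-2.12) to CKAP2L (0.41). Its intervals lay below 0 in 42 (20.8% of all tested genes) and above in 5 (42.7%). The members' median thus lay at that of all genes and the G2/M median below it, a difference that was not tested. Under median-ratio scaling the medians turned to -0.030 for further replication factors, -0.094 for checkpoint genes, -0.13 for G1/S cyclins and kinases, -0.13 for the members among the S-phase markers and -0.093 for those outside. There nucleotide supply genes were at 0.011, S-phase markers that are no members at 0.035, histone supply genes at -0.36 and the G2/M list at -0.63, beside -0.067 over all tested genes.

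**Figure D4:**
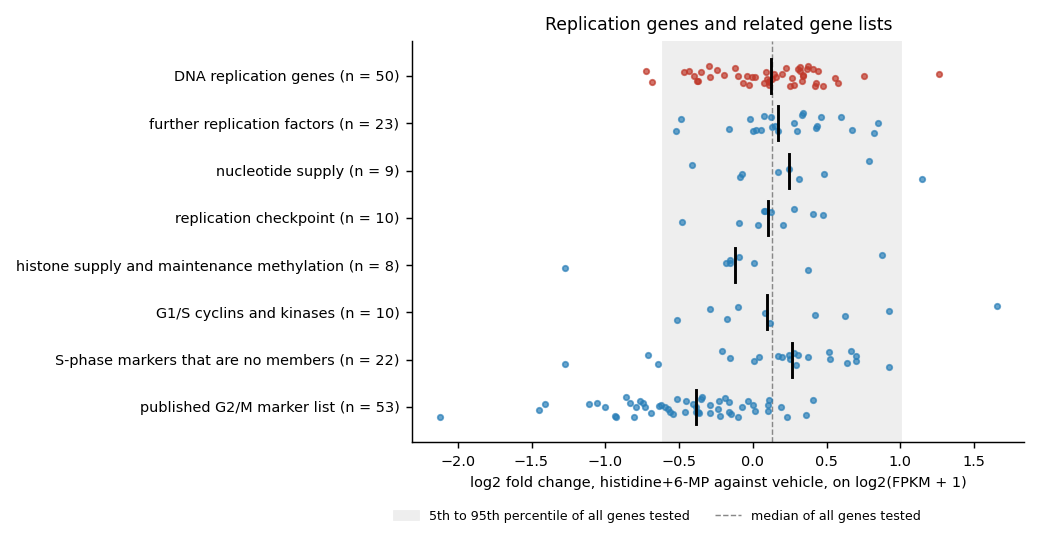
Log2 fold change (log2(FPKM + 1) scale) of the combined treatment against vehicle, with 1 point per gene for the 50 DNA replication genes and 7 related lists, black bars for list medians, a dashed line for the median of all tested genes and shading for their 5th to 95th percentile. The members' median, 0.12, lies at the dashed line (0.13), and that of the G2/M list lies at -0.39.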

How the data were processed

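RNA was extracted with Trizol, and 1 library per treatment was prepared with a TruSeq Stranded mRNA kit. Groups were taken from the sample labels. The submitters' processing notes name Trimmomatic, HISAT2, Cufflinks and HTSeq and the build GRCh38 (hg38). Versions, annotation release and the use of strand in counting are not given in the sources used here. The authors deposited FPKM values per gene, with symbols and positions. Their DESeq2 test was not repeated, as there are no replicates.

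Whole reads were recovered from the FPKM steps for 29830 of 29833 genes (99.9% of each library total). The length tolerance was 10%, and the length was multiplied (by at most 6) for 1388 genes and for 0 members. Log2 fold changes are differences of log2(FPKM + 1), which understates low genes, for the 12750 genes whose mean FPKM reached 1. All 50 members passed. A fold counted at an absolute value of at least 1. Read ratios carry exact Clopper-Pearson 95% intervals. The 5 comparisons share libraries, namely vehicle in 3 and the combined treatment in 3. The members, lists and tests were chosen with earlier results of these data known. Values in all libraries are printed for the highest and lowest member of each role against vehicle, for PCNA and for members past the threshold, and others named with them were chosen after their values were seen. Lists are described by counts, medians and extremes. Alternatives were a pseudocount of 0.1, no filter, a mean FPKM of at least 5, median-ratio scaling, TPM, a 1.5-fold threshold and protein-coding genes only. Scripts were tested on simulated data (matplotlib 3.10.9, scipy 1.17.1, pandas 2.3.3 and numpy 2.4.6 under Python 3.11.15).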

Additional observations from a re-analysis of the deposited data

Results flagged for a closer look

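For 10 members the histidine library stood on one side of vehicle and the combined library on the other side of 6-MP, both beyond counting error (background 5.88% of tested genes). The difference between the effects was not tested, and the members' larger read numbers narrow their intervals. The log2 read ratio for histidine without 6-MP and then with it was 0.040 and -0.50 for MCM7, 0.062 and -0.35 for MCM5, 0.068 and -0.76 for POLD2, and 0.082 and -0.079 for CHAF1A. It was -0.073 and 0.51 for RRM2, -0.12 and 0.45 for CHAF1B, -0.18 and 0.42 for RPA2, -0.070 and 0.27 for PCNA, -0.11 and 0.14 for CDC6, and -0.096 and 0.14 for RFC1. The ratios without 6-MP ran from -0.18 to 0.082. After scaling by the median ratio 3 of the 10 (CHAF1B, RPA2 and RRM2) kept opposite intervals, and CDC6 (-0.15 and -0.095), RFC1 (-0.14 and -0.098) and MCM7 (-0.00016 and -0.74) had the same sign in both steps.

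For 2 members (background 5.32%) the 6-MP library against vehicle and the combined library against histidine lay in opposite directions, again untested. The log2 read ratio was -0.26 and then 0.42 for PRIM1, and -0.11 and then 0.36 for POLE. After that scaling 5 members had opposite intervals (background 5.63%): PRIM1 and POLE, and also TIMELESS, PCNA and RPA3, whose intervals were not opposite as deposited.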

How the results depend on the processing

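The median ratio was taken over all genes with an FPKM above 0 in each library, also those below a mean FPKM of 1. Intervals after this scaling treat its factor as free of error. Scaling by the median ratio raises the divisor of the combined library and so lowers its values. Under it the members' median log2 fold change with the combined treatment was -0.098 against vehicle, -0.081 against histidine and -0.079 against 6-MP, and the median departure from additivity was -0.038, beside -0.067, -0.060 and -0.065 over all tested genes for the 3 comparisons. The count of members past an absolute log2 fold change of 1 became 0 against histidine and 0 against 6-MP, since CDT1 fell just under 1, as its departure from additivity did (0.95). With the 1.5-fold threshold the counts were 4, 5 and 5. Pseudocount 0.1, TPM, both other filters and protein-coding genes only left the medians and counts of the 5 comparisons on the same side. CDT1, the member past the threshold, kept its sign under each alternative. Over all members the sign against vehicle changed with a setting for 14 of 50 with the combined treatment, 12 with histidine and 5 with 6-MP. After that scaling the intervals of 12 members lay above 0 and of 22 below, for the combined treatment against vehicle. No paired analysis was possible because a single library was made per treatment, and leaving out replicates did not apply. Counting error alone gave a median interval half-width of 0.11 on the log2 scale for the members, and variation between cultures is not covered.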

Other observations

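Letters searched after the values were seen were CACGTG, the E-box, on both strands. They were present in the promoter windows of 9 of 43 members (20.9%), against 12.9% of the tested protein-coding genes. Of the members with a window, 6 of the 16 that were lower with the combined treatment than with vehicle held them (CHAF1A, FEN1, GMNN, MCM2, MCM7 and RPA1) and 3 of the 27 that were higher (MCM8, ORC4 and TIMELESS). As deposited these shares were 37.5% and 11.1%. By the sign after median-ratio scaling they were 26.9% (7 of 26 lower) and 11.8% (2 of 17 higher). The split is a description on few genes. It was not tested. As deposited ORC4, GMNN and FEN1 were within counting error of vehicle. After scaling by the median ratio GMNN and FEN1 were lower than vehicle beyond counting error. ORC4 and GMNN turn sign with a scaling.

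The summed FPKM of the 50 members was 2265, 2253 and 2219 for vehicle and the single agents and 2346 for the combined treatment. As deposited, the log2 ratio of the members' summed reads to vehicle was 0.028 for the combined treatment, and with median-ratio scaling it was -0.22.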
